A study of Mus musculus with 3 samples.

Results

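C1q-high testicular macrophages were leukocytes of the mouse testis that carried many transcripts of the complement C1q chains. A cell was a member when at least 3 of the leukocyte genes Ptprc, Laptm5, Tyrobp, Fcer1g and Csf1r had at least 1 UMI (a unique molecular identifier, which marks a single captured RNA molecule) and when C1qa, C1qb and C1qc together had at least 5. The rule was applied to cells with at least 200 detected genes and at most 10% mitochondrial UMIs, and it selected 539 of 19396 such cells (2.78%). Since the members were chosen by measured values, their levels of these 8 genes are a description and carry no test.

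The cells came from 3 droplet libraries of C57BL/6 testis cells, each a pool of 3 mice with no second library. The Tomato-negative library held cells of animals aged 8 weeks, Ddx4-creER; R26tdTomato in genotype and 4 weeks past tamoxifen, in which the Cre marks germ cells and Tomato+ cells had been removed by sorting. The control (Scf fl/fl) and Scf-cKO (Scf fl/fl with Amh-cre) libraries were both made at 6 weeks of age, and haploid cells had been depleted from both by flow cytometry on DNA content. Scf, also named Kitl, encodes stem cell factor, and Amh-cre acts in Sertoli cells, so the deletion was not aimed at the cells described here. Kitl stood at 7.98, 6.72 and 20.1 counts-per-million (CPM, scaled to the summed UMIs) in members of the Tomato-negative, control and Scf-cKO libraries, where 5, 3 and 27 UMIs were counted, so the members give no check of the deletion. The Tomato-negative and control libraries differed in age, genotype, tamoxifen and sort, and these cannot be told apart.

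Testicular macrophages lie in the interstitium beside Leydig cells and on the surface of the seminiferous tubules. They take up dying cells, present antigen on MHC class II, and supply factors to the spermatogonial niche. The interstitial cells are known for the mannose receptor (Mrc1, CD206) and the CSF1 receptor and for little MHC class II, and the peritubular cells for high MHC class II and little CSF1 receptor. C1q, assembled from the C1qa, C1qb and C1qc chains, starts the classical complement cascade and tags cell debris for uptake, and tissue macrophages are its main source. In the mouse genome (GRCm38.p6, RefSeq) the 3 genes lie side by side on chromosome 4, C1qb at 136880126 to 136886200, C1qc at 136889801 to 136892936 and C1qa at 136895916 to 136898844.

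The members numbered 138 of 6234 kept cells in the Tomato-negative library (2.21%, 95% interval 1.86 to 2.61), 127 of 6124 in the control library (2.07%, 1.73 to 2.46) and 274 of 7038 in the Scf-cKO library (3.89%, 3.45 to 4.37). The share was highest in the Scf-cKO library and its interval did not meet those of the other libraries, which overlapped each other. Among cells with up to 3500 detected genes, however, the shares were 6.07%, 3.35% and 5.68%, so the Tomato-negative library then stood above the Scf-cKO one. These shares are shares of sorted cells, and the loss of other cells and a gain of macrophages give the same share. All intervals here are exact ones at 95% and cover counting error only. With 1 library a condition there was no replicate, and no p-value is given.

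The libraries held 68602272 to 195380762 UMIs in all, and members were shallow cells. Their median depth was 2800.5, 2376 and 3164.5 UMIs in the Tomato-negative, control and Scf-cKO libraries, against 13924, 6197 and 6419.5 in the other kept cells. A few large members held much of the RNA: 7, 5 and 16 members with over 3500 detected genes held 38.4%, 33.0% and 26.4% of all member UMIs. Scrublet, which scores cells against simulated mixtures, called 6, 10 and 36 members doublets (4.35%, 7.87% and 13.1%). Transcripts of haploid germ cells stood at a median of 12.8, 17.4 and 0 UMIs per 10000 in members and at 15.4, 11.5 and 0 in the other cells, so the typical Scf-cKO cell, member or not, held none. Pairs of libraries shared 9, 13 and 15 cell barcodes.

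The label held against its markers. Adgre1, the F4/80 antigen, stood at 115 CPM in Tomato-negative, 177 in control and 202 in Scf-cKO members, against 0.290, 0.223 and 0.0300 in the other kept cells. Mrc1, a scavenger receptor for mannose-bearing glycoproteins, stood at 207, 163 and 549 CPM, against 5.07, 0.300 and 1.35. The 27 genes of a macrophage identity list summed to 11000, 11556 and 14756 CPM in members, against 310, 281 and 816 in the other kept cells. Neither Adgre1 nor Mrc1 was used by the rule. Csf1r, the receptor that keeps macrophages alive, was part of it and stood at 389, 493 and 718 CPM.

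**Figure D1:**
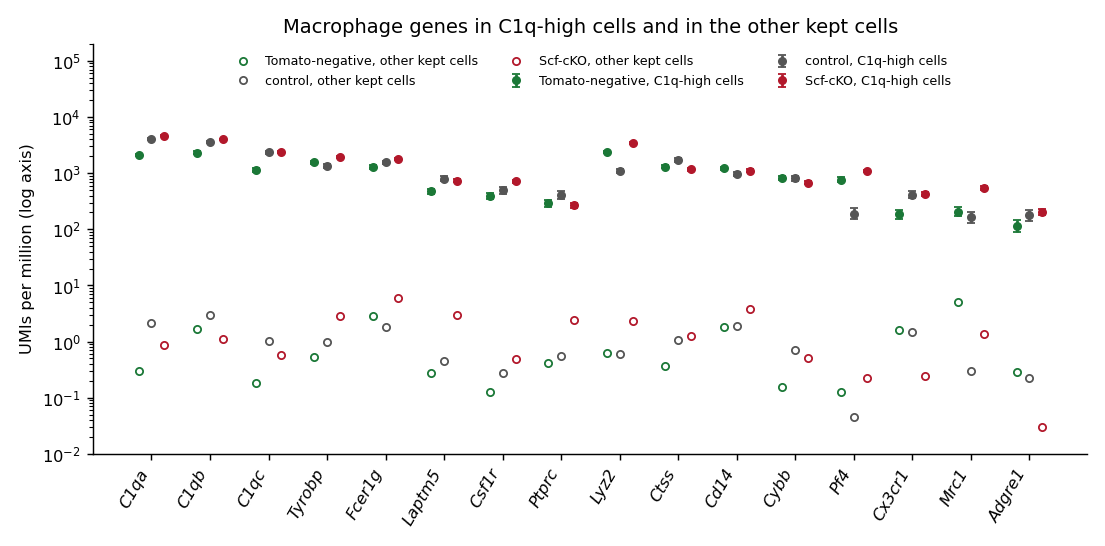
Levels of 16 macrophage genes, including the 8 of the rule, in C1q-high cells (filled points, with exact 95% Poisson intervals) and in all other kept cells (open points) of each library, as CPM on a log axis. Each filled point lies far above the open point of the same library, and the C1q chains and Csf1r are lowest in the Tomato-negative cells.

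The genes most restricted to members went beyond the rule. By the lowest ratio over the other kept cells among the 3 libraries, the first was Pf4, platelet factor 4, a chemokine also made by tissue macrophages, at least 4275 times the level of the other cells in each library. The next outside the rule were the chemokine Ccl3 (1559 times), lysozyme Lyz2 (1490), the inflammasome sensor Nlrp3 (1384), the cytokine Il1b (1243) and the NADPH oxidase subunit Cybb (1162). Ly86, Ctss, Ccl12, Lilrb4a and C3ar1, the receptor for the complement fragment C3a, completed the first 15 at 866 to 989 times. Markers of lymphocytes and neutrophils were sparse: the summed level of 14 T and NK cell markers was 12.8, 8.95 and 32.0 CPM, and of 7 neutrophil markers 17.6, 0 and 57.3 CPM. The 8 B cell markers summed to 81.4, 271 and 203 CPM, with 6, 6 and 4 of them at 0, and 11 monocyte markers to 399, 412 and 505 CPM.

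C1q itself was lower in the Tomato-negative members. C1qa stood at 2108, 4016 and 4619 CPM in the Tomato-negative, control and Scf-cKO members, C1qb at 2314, 3611 and 4020, and C1qc at 1142, 2346 and 2394. Per cell, the 3 chains together had a median of 20.5, 34 and 45 UMIs, or 75.9, 142 and 147 per 10000 UMIs of the cell. The threshold cut few cells: 0, 4 and 1 members had 5 or 6 C1q UMIs, and 2, 6 and 1 cells with enough leukocyte genes fell just below it with 3 or 4. A further 5, 3 and 20 immune cells had 0 to 2 C1q UMIs, and 5, 11 and 3 cells had enough C1q but 2 leukocyte genes.

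MHC class II separated members of the Scf-cKO library. The class II UMIs of a cell were those of H2-Aa, H2-Ab1 and H2-Eb1, chains of the molecules that present peptides to CD4 T cells, and of Cd74, the invariant chain that guides them. Their median was 498 per 10000 UMIs in Tomato-negative, 498 in control and 310 in Scf-cKO members, and the first quartile was 332, 293 and 47.5. Thus the typical member was strongly class II-positive, and in the Scf-cKO library the lower part of the distribution reached further down. Members below 20 class II UMIs per 10000, a bound set after these values were seen, numbered 4 of 138 in the Tomato-negative library (2.90%, 0.795 to 7.26), 2 of 127 in the control library (1.57%, 0.191 to 5.57) and 53 of 274 in the Scf-cKO library (19.3%, 14.8 to 24.5). Without doublets and members over 3500 genes they numbered 1 of 129, 1 of 116 and 47 of 238 (19.7%). Another 3, 2 and 8 members lay between 20 and 40 per 10000, so few cells were near the bound.

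**Figure D2:**
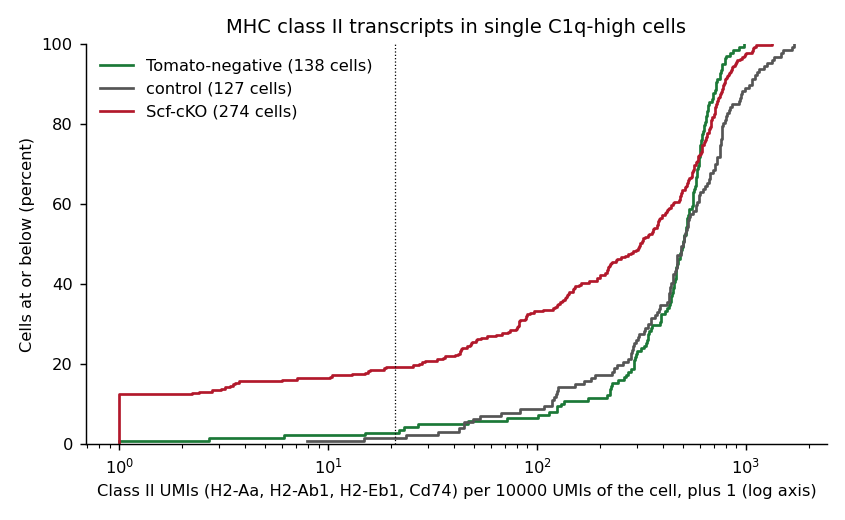
Cumulative share of C1q-high cells (percent) against their class II UMIs per 10000 UMIs plus 1, on a log axis, for each library, with a dotted line at the bound of 20. The Scf-cKO curve stands at 19.3% at the bound, while the Tomato-negative and control curves stand at 2.90% and 1.57%.

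The class II-low members of the Scf-cKO library carried genes of the interstitial, tissue-resident type. Folr2, a folate receptor of resident macrophages, stood at 770 CPM in the 53 class II-low cells and at 5.11 CPM in the other 221 members of the library. F13a1, coagulation factor XIII subunit A, stood at 1400 against 24.5 CPM, and Cbr2, carbonyl reductase 2, at 1038 against 23.5. At least 2 of these 3 genes had a UMI in 49 of the 53 (92.5%) and in 4 of the 221 (1.81%), compared with 0 of 6363 cells of the library without any leukocyte UMI. In the Tomato-negative library the same held for 2 of 4 class II-low and 4 of 134 other members, and in the control library for 0 of 2 and 2 of 125. Folr2, F13a1 and Cbr2 had no part in the rule or in the class II bound. They stood first, however, among genes ordered by their ratio between these same cells, so their contrast follows from that choice. It describes cells of 1 library and no test applies.

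More genes followed the same split. Apoe, the apolipoprotein that carries cholesterol out of macrophages, stood at 24546 CPM in class II-low and 2068 in the other Scf-cKO members. Mrc1 stood at 1285 against 275 CPM, the heme-breakdown enzyme Hmox1 at 362 against 34.7, and the iron exporter Slc40a1 at 162 against 1.02. The scavenger receptor Stab1 stood at 540 against 47.0 CPM, the lipid receptor Trem2 at 1186 against 169, and the growth factor Igf1 at 490 against 125. These genes were each higher in the class II-low cells, whereas the ferritin heavy chain Fth1 was level at 8855 against 8741 CPM. In the opposite direction, Il1b stood at 236 against 5437 CPM, the lectin Mgl2 at 71.2 against 699, Cd52 at 162 against 1283, the inflammasome sensor Nlrp3 at 126 against 921, and Ccr2, the receptor that brings monocytes from blood, at 21.9 against 119. Mgl2 was thus the exception among the interstitial genes named here.

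The split was also seen at equal depth. The class II-low Scf-cKO members were deeper, with a median of 5679 UMIs against 2937, so each cell was also thinned at random to 1000 UMIs, which kept 52 and 217 cells. Folr2 was then detected in 55.8% (41.3 to 69.5) of the class II-low and 0.461% (0.0117 to 2.54) of the other members, and Apoe in 94.2% and 28.1%. Igf1 was detected in 53.8% and 5.99%. By contrast, Il1b was detected in 9.62% and 79.7%, and Cd52 in 7.69% and 74.2%. Of the genes on which all members were chosen, C1qa was detected in 94.2% and 95.4% and Csf1r in 90.4% and 48.4%. Adgre1 was detected in 32.7% (20.3 to 47.1) and 21.2% (16 to 27.2), with intervals that overlapped. Lyve1, a marker of vessel-associated macrophages, was detected in 0 of 52 and 0 of 217, with intervals reaching up to 6.85% and 1.69%. The proliferation gene Mki67 was detected in 5.77% and 7.83%.

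**Figure D3:**
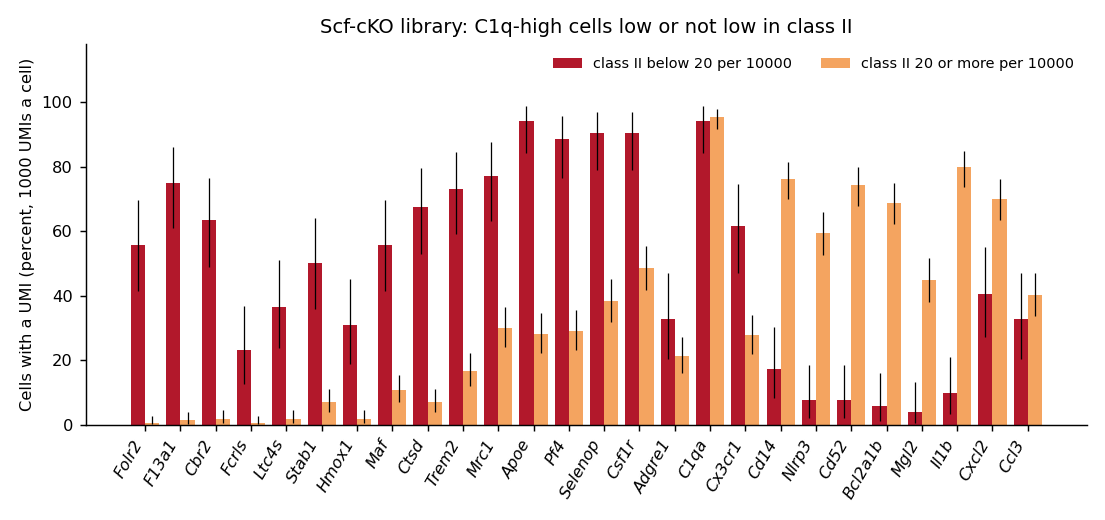
Share of Scf-cKO C1q-high cells with a UMI (percent, each cell thinned to 1000 UMIs) for 26 genes, in 52 cells below and 217 cells at or above 20 class II UMIs per 10000, with exact 95% intervals. Resident genes such as F13a1 (75% and 1.38%) stand higher in the class II-low cells and Il1b (9.62% and 79.7%) lower.

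Listed by function, the summed level of 22 resident interstitial macrophage genes was 14130 CPM in class II-low and 2668 CPM in the other Scf-cKO members. Lipid and cholesterol genes summed to 28293 against 3388 CPM, of which Apoe supplied 24546 and 2068. Lysosomal genes summed to 18080 against 8443 CPM, and iron and heme genes to 19726 against 12943. Inflammatory cytokine and NF-kB genes summed to 4369 against 10710 CPM, of which Il1b supplied 236 and 5437, and Tnf was level at 337 against 342. Interferon response genes stood at 2057 against 2108 CPM. Markers of stromal cells summed to 611 against 1004 CPM and were seen in 28.3% and 25.3% of cells, so their sum was not higher in the class II-low cells. Dissociation stress genes were, at 22990 against 15410 CPM (Jun 3328 against 892, Klf2 1939 against 323, Egr1 1369 against 654), and T and NK cell markers summed to 68.5 against 18.4 CPM and were seen in 15.1% and 1.36% of cells. Their part in the split was not tested. The share of haploid germ transcripts was small in both, at 57.5 and 66.4 CPM.

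Levels were next compared between the Scf-cKO and control members, which were of the same age, strain and sort, to ask what the macrophages of a testis without Sertoli cell Scf carried. A gene was counted when it had at least 50 UMIs over both libraries and its ratio of CPM, with 0.5 added to each count, was at least 2 in either direction. Of 5694 genes, 745 were at least 2-fold higher (13.1%) and 800 at least 2-fold lower (14.0%) in the Scf-cKO members, with a median log2 ratio of 0.13. These background shares are what the counts over the lists stand against.

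Resident interstitial genes were higher in the Scf-cKO members. Of the 22 listed, 14 had enough UMIs, 12 were at least 2-fold higher and 1, Gas7, was 2-fold lower, with a median log2 ratio of 2.65. F13a1 stood at 24.6 CPM in control and 398 in Scf-cKO members (log2 ratio 3.95, 3.16 to 5.03), Folr2 at 13.4 and 213 (3.87, 2.85 to 5.44) and Cbr2 at 22.4 and 299 (3.67, 2.85 to 4.81). In the control library 1 cell held 90.9% of the F13a1 UMIs, whereas in the Scf-cKO library the top cell held 5.23%. Ltc4s, leukotriene C4 synthase, and Ccl24, an eosinophil chemokine, had no UMI in control members and stood at 104 and 72.2 CPM in Scf-cKO members, at least 15.5-fold and 10.7-fold higher against a floor of 3 counts over the group. The list median is the same with both at this bound.

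Most of this difference was carried by the class II-low cells. When only members with at least 20 class II UMIs per 10000 were summed in both libraries, 3 of the 9 resident genes with enough UMIs were at least 2-fold higher and 1 lower, against 8.80% and 12.0% of all 4534 genes with enough UMIs, and the median was 0.92. Folr2 then stood at 5.11 CPM in Scf-cKO and 15.2 in control, F13a1 at 24.5 and 27.8, and Cbr2 at 23.5 and 25.3. None of these 3 genes was higher in the Scf-cKO cells of this kind, on 5 to 24 UMIs in Scf-cKO and 6 to 11 in control. These 3 genes ranked first for the class II-low cells. Their fall on leaving those cells out was therefore fixed by that choice and gives no support. The summed level of the list was then 2668 against 1520 CPM, compared with 5782 against 1361 in all members.

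Lipid and iron lists also held genes that were higher in Scf-cKO members, read against the 13.1% of all genes. Of 15 lipid and cholesterol genes 7 were at least 2-fold higher and 1 lower, with a median of 0.71. Apoe stood at 1054 CPM in control and 8176 in Scf-cKO members (log2 ratio 2.95), Trem2 at 73.9 and 445 (2.57), and the scavenger receptor Cd36, the gene that was lower, at 273 and 40.9 (-2.73). Apoe was also abundant outside macrophages in the Scf-cKO library, at 720 CPM in the other kept cells against 46.1 in control. At equal depth it was detected in 40.9% of Scf-cKO members and 43.6% of cells of that library without a leukocyte UMI. The share over all members was thus not above background, whereas their level of 8176 CPM was above that of the other kept cells. Among class II-low members the share was 94.2%, and among the other members 28.1%. Of 12 iron and heme genes 7 were higher and 0 lower (median 1.16), among them Hmox1 (15.7 and 124 CPM), which opens the heme ring. In the other kept cells of these libraries the iron and heme list stood at 1425 and 6167 CPM, against 7677 and 14786 in members, and Hmox1 at 9.18 and 59.97 CPM. Ferritin light chain, Ftl1, stood at 2225 and 4534 CPM. Of 26 lysosomal genes 5 were higher and 0 lower (median 0.54), a share near that of all genes, led by the protease Ctsd at 47.0 and 344 CPM. With class II-low members left out of both libraries, 4 of 14 lipid genes were at least 2-fold higher and 1 lower (median 0.22), 2 of 9 iron genes higher and 0 lower (0.52), and 0 of 24 lysosomal genes higher or lower (-0.07), where 8.80% of all genes were higher and 12.0% lower.

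The genes with the highest ratio, ordered by the interval end nearest to 1, held 3 more that are described here. Fcrls, an Fc receptor-like gene of microglia and resident macrophages, had no UMI in control members and stood at 113 CPM in Scf-cKO members, at least 16.8-fold higher. Gdpd3, a lysophospholipase D, stood at 15.7 and 243 CPM, and the lectin receptor Clec4n at 4.48 and 111 (2 and 149 UMIs, log2 ratio 4.31, 2.75 to 7.69). Gdpd3 was as high in Tomato-negative members, at 294 CPM.

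Markers of other testis cells moved with this comparison. The 11 stromal cell markers summed to 62.7 CPM in control and 898 in Scf-cKO members (277 and 2664 CPM in the other kept cells), and all 6 with enough UMIs were at least 2-fold higher. Dcn, a proteoglycan of the stroma, stood at 8.95 and 481 CPM. The 10 myoid and smooth muscle markers summed to 296 and 1084 CPM, with 6 of 6 higher, and the 10 Leydig cell markers to 22.4 and 295 CPM, with 3 of 3 higher. The 25 haploid germ transcripts went the other way, from 18852 to 64.0 CPM with 16 of 16 lower, and the 10 genes with the lowest ratio were led by the protamine and transition protein genes Prm1, Prm2, Tnp2 and Tnp1, of which Prm1 stood at 4312 and 0.744 CPM. A single control cell held 73.1% of the Prm1 UMIs. These transcripts take a share of the total that each level is scaled to. Their part in the other ratios was not tested except by leaving out the large cells, after which the resident list still had 11 of 14 higher and 1 lower (median 2.49), against 9.23% and 6.71% of all genes, and haploid transcripts stood at 4753 and 53.6 CPM.

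**Figure D4:**
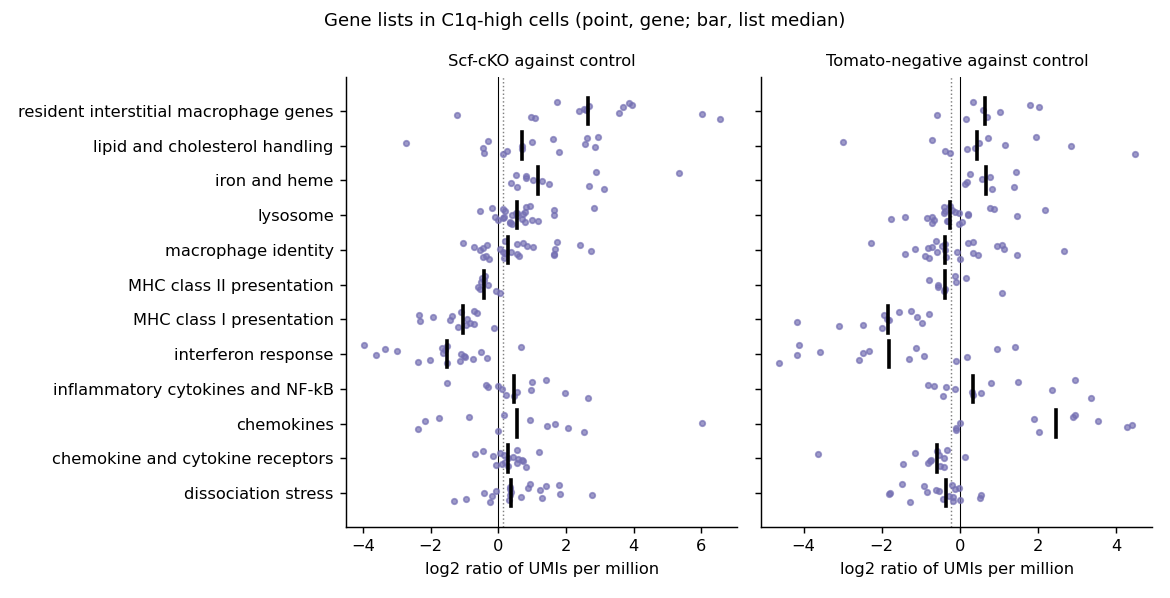
Log2 ratio of CPM for each listed gene with enough UMIs (points) and the list median (bars) for the 12 functional lists plotted, marker lists of other cells not among them, Scf-cKO against control on the left and Tomato-negative against control on the right. The dotted line marks the median over all genes tested, 0.13 and -0.24. Of these 12, resident genes have the highest median on the left (2.65), chemokines on the right (2.45), and MHC class I and interferon response genes stand low on both sides, which share the control library.

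Class II genes as a group were not past 2-fold. Of 9 class II presentation genes none was at least 2-fold higher or lower in Scf-cKO members, and the median was -0.42. H2-Aa stood at 4688 CPM in control and 3556 in Scf-cKO (log2 ratio -0.40, -0.47 to -0.32) and Cd74 at 18846 and 13218 (-0.51, -0.55 to -0.47). The sum over cells thus hid the split seen cell by cell. With members below the bound left out the median was -0.20.

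MHC class I and interferon response genes were lower in Scf-cKO than in control members, in the class II-high cells too. Of 14 class I presentation genes, whose products load peptides for CD8 T cells, 0 were at least 2-fold higher and 7 lower (median -1.03). H2-K1, a class I heavy chain, stood at 2467 CPM in control and 1141 in Scf-cKO, and the peptide transporter Tap1 at 273 and 54.3. Of 19 interferon response genes 0 were higher and 14 lower (median -1.52). Ifit2, an interferon-induced antiviral protein, stood at 179 and 11.2 CPM (log2 ratio -3.97, -4.91 to -3.20), the antiviral enzyme Rsad2 at 215 and 17.1, the ubiquitin-like protein Isg15 at 110 and 10.4, and the transcription factor Irf7 at 179 and 22.3. Among members with at least 20 class II UMIs per 10000 the counts were 9 of 14 and 15 of 18 lower, against 12.0% of all genes. Of the chemokines that interferon also induces, Cxcl10 stood at 743 and 142 CPM. After the first 10, led by germ cell genes, Ifit2, Rsad2, Isg15 and Irf7 were the next 4 in the ranking, a remark made after their values were seen.

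Macrophages of the Tomato-negative library were compared with the same control, as a description of the sources. Of 3851 genes, 314 were at least 2-fold higher (8.15%) and 365 at least 2-fold lower (9.48%) in the Tomato-negative members, with a median log2 ratio of -0.24. The split of calls moved with the scaling: with the median set to 0 it was 417 higher and 197 lower, and with each cell weighted the same 237 and 938. The order of genes within the comparison is the safer reading.

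Chemokine genes were far higher in the Tomato-negative members. The 19 listed summed to 67826 CPM, against 12038 in control and 9422 in Scf-cKO members, and 7 of the 10 with enough UMIs were at least 2-fold higher and 0 lower (median log2 ratio 2.45). Cxcl2, which draws neutrophils, stood at 22366 CPM in Tomato-negative, 1157 in control and 3144 in Scf-cKO members (log2 ratio to control 4.27, 4.15 to 4.40). Ccl2, which draws monocytes, stood at 6362, 831 and 929 CPM, and Ccl3, a chemokine of activated macrophages, at 11137, 1509 and 824. Ccl4 stood at 20641, 5577 and 1660 CPM. Other chemokines were level between these libraries: Cxcl10, which interferon induces, stood at 697 CPM in Tomato-negative and 743 in control members, and Ccl12 at 1171 and 1175. No member held more than 4.12% of the Tomato-negative UMIs of Cxcl1, Cxcl2, Ccl2, Ccl3 or Ccl4.

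Detection of Cxcl2 at equal depth gave the same order of libraries. With each cell thinned to 1000 UMIs (137, 100 and 269 members, with 1, 27 and 5 left out as shallower), Cxcl2 was detected in 94.2% (88.8 to 97.5) of Tomato-negative, 38% (28.5 to 48.2) of control and 64.3% (58.3 to 70.0) of Scf-cKO members. In cells of the same libraries with no leukocyte UMI, whose median depth was 13275, 6129 and 6336 UMIs before thinning, it was detected in 0.454%, 0.218% and 0.145%. Cxcl1 was detected in 56.2%, 6.00% and 17.8% of members, and the last share was near the 15.1% of the Scf-cKO cells without a leukocyte UMI. Cxcl1 in the Scf-cKO members is therefore read as background.

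Cytokine genes differed one by one. Il1b stood at 5652 CPM in Tomato-negative, 2033 in control and 4024 in Scf-cKO members, Il1a at 266, 33.6 and 91.5, and Tnf at 1679, 976 and 341. The transcription factor genes Egr3 (761, 49.3 and 46.1 CPM) and Nr4a3 (413, 15.7 and 46.9) and the calcineurin regulator Rcan1 (260, 8.95 and 20.8) were among the 10 highest ratios. Nr4a2 stood at 195, 4.48 and 79.6 CPM, with 2 UMIs in control members (log2 ratio 5.13, 3.56 to 8.5). The collagenase gene Mmp13, the lipase Pla2g7, the fusion protein Dcstamp and the RNA-binding protein Zc3h12c had no UMI in control members and stood at 266, 156, 79.8 and 84.6 CPM in Tomato-negative ones, at least 39.7-fold, 23.3-fold, 11.9-fold and 12.6-fold higher. Ch25h, a cholesterol hydroxylase, stood at 407, 56.0 and 41.7 CPM.

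Other functional lists moved less than the chemokines in the Tomato-negative members. Over all genes 8.15% were at least 2-fold higher and 9.48% lower. Of 13 inflammatory cytokine and NF-kB genes 4 were at least 2-fold higher and 0 lower (median 0.32), and of 8 resident interstitial genes 3 were higher and 0 lower (0.64). Of 24 macrophage identity genes 4 were higher and 3 lower (-0.38), and of 23 lysosomal genes 2 were higher and 2 lower (-0.25). The share that was higher lay nearer to that of all genes in the identity and lysosomal lists. Sertoli cell markers summed to 1308 CPM in Tomato-negative and 82.8 in control members, with 5 of 5 at least 2-fold higher, and 1 Tomato-negative cell held 95.1% of the UMIs of Clu, the Sertoli cell clusterin. Among members with up to 3500 genes the sums were 161 and 117 CPM.

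A list of 21 genes known to respond to tissue dissociation was also read. Of 18 with enough UMIs 0 were at least 2-fold higher and 4 lower in Tomato-negative members (median -0.35). Over all genes 8.15% were higher and 9.48% lower. The chemokine genes, Egr3, Nr4a2 and Nr4a3 are not on this list, and a part of cell handling in their levels was not tested. Fos stood at 383, 1079 and 2079 CPM and Jun at 306, 582 and 1554 in the Tomato-negative, control and Scf-cKO members. In the other kept cells Fos stood at 127, 323 and 2602 CPM and Jun at 90.3, 163 and 1334. In the Scf-cKO members 6 of 20 were higher than in control and 1 lower (median 0.36). The order of the 3 libraries in both genes was the same in members and in the other kept cells.

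Interferon response and MHC class I genes were lower than control in the Tomato-negative members also. Of 14 interferon response genes 1 was at least 2-fold higher and 9 lower (median -1.83), and of 12 class I genes 0 were higher and 10 lower (median -1.84). Over all genes 8.15% were higher and 9.48% lower. Both comparisons use the same control members, so the values are given side by side. Ifit2 stood at 9.57 CPM in Tomato-negative, 179 in control and 11.2 in Scf-cKO members, Irf7 at 14.4, 179 and 22.3, and Tap1 at 14.4, 273 and 54.3. The immunoproteasome subunit Psmb8 stood at 109, 604 and 313 CPM. In these genes the control library was the high one. Isg15 differed, at 214, 110 and 10.4 CPM, and so did Ifitm2, at 728, 273 and 440.

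At 1000 UMIs a cell, Irf7 was detected in 2.92% (0.801 to 7.31) of Tomato-negative, 22% (14.3 to 31.4) of control and 3.72% (1.80 to 6.73) of Scf-cKO members, against 0.236%, 1.03% and 1.67% of cells without a leukocyte UMI. Tap1 was detected in 1.46%, 28% and 5.95%, against 0.163%, 0.454% and 0.627%. H2-K1 was detected in 70.1% (61.7 to 77.6), 89.0% (81.2 to 94.4) and 67.3% (61.3 to 72.9) of members, so most members of each library carried the class I heavy chain. Irf1 was detected in 10.2%, 42% and 13.8% of members, and the Scf-cKO share stood below the 18.1% of Scf-cKO cells without a leukocyte UMI.

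**Figure D5:**
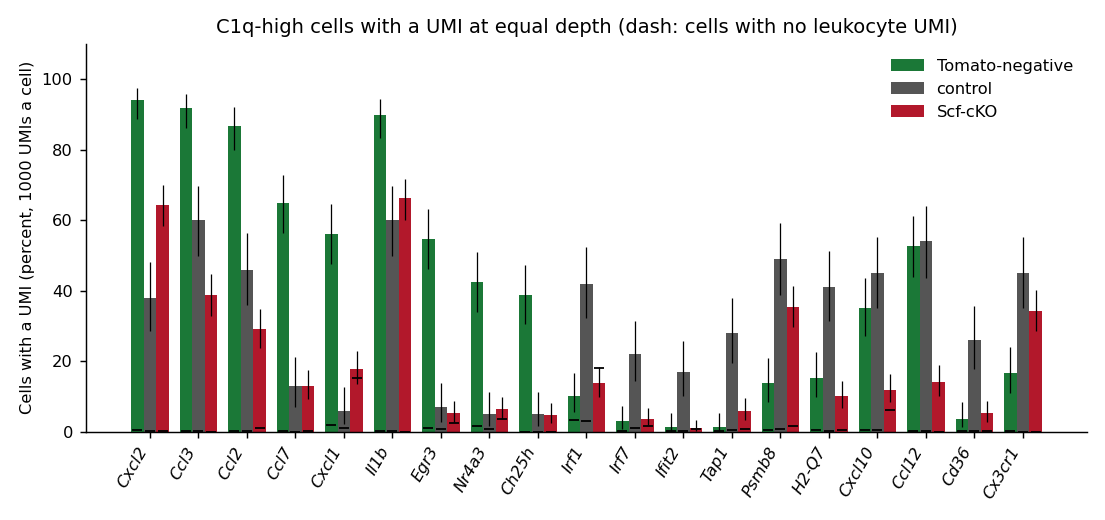
Share of C1q-high cells with a UMI (percent, each cell thinned to 1000 UMIs) for 19 genes in each library, with exact 95% intervals. A dash marks the share in cells of the same library with no leukocyte UMI. Cxcl2 stands at 94.2%, 38% and 64.3% in the Tomato-negative, control and Scf-cKO cells and Irf7 at 2.92%, 22% and 3.72%.

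Promoters of these genes were read for known motifs because the interferon and chemokine lists moved as groups. In the 250 bases before the start site (RefSeq, GRCm38.p6), the core of the interferon-stimulated response element, GAAANNGAAA on either strand, occurred in 936 of 27025 promoters (3.46%) and in 9 of 16 interferon response genes with a promoter, of 19 with enough UMIs (Bst2, Cxcl10, Gbp2, Ifi207, Ifit3, Ifitm2, Isg15, Rsad2 and Stat2). The kappa-B motif GGGNNTTTCC occurred in 447 of 27025 (1.65%) and in 2 of the 6 chemokine genes with a promoter, Cxcl1 and Cxcl2, of 10 with enough UMIs. Parts of 5 promoters with a match are shown from the gene's strand, 5′ to 3′, with the matches in capitals. They are Rsad2 (chr12:26456533-26456602, minus strand), Isg15 (chr4:156200845-156200926, minus), Cxcl10 (chr5:92349063-92349132, minus), Cxcl1 (chr5:90891126-90891213, plus) and Cxcl2 (chr5:90903772-90903860, plus).
Rsad2: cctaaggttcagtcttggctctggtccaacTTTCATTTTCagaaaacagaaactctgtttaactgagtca
Isg15: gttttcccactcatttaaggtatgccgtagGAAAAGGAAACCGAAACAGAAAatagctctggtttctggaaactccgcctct
Cxcl10: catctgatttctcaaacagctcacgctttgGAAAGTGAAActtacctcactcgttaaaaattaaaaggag
Cxcl1: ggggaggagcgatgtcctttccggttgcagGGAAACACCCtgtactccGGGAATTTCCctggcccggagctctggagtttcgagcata
Cxcl2: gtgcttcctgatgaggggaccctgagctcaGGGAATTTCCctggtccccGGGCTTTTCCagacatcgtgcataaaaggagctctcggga

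The capitals of Isg15 hold 3 overlapping matches, and Cxcl1 and Cxcl2 hold 2 each. Rsad2 stood at 11.2, 215 and 17.1 CPM in the Tomato-negative, control and Scf-cKO members, whereas Isg15, with the same motif, was higher in Tomato-negative than in control members. Cxcl1 and Cxcl2 lie next to each other in these coordinates and stood at 2015 and 22366 CPM in Tomato-negative members, against 94.0 and 1157 in control. Ifit2, Irf7 and Ccl3 had no match to the searched letters in this window. A match describes the sequence and says nothing of binding.

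Other genes separated the Tomato-negative members by lower levels. Fgl2, a fibrinogen-like protein of macrophages, stood at 22.3 CPM in Tomato-negative, 405 in control and 254 in Scf-cKO members, and Ccr2 at 11.2, 148 and 92.3. Fgl2 was also present outside macrophages, at 42.5, 130 and 740 CPM in the other kept cells. Gbp2, an interferon-induced GTPase, had 3 UMIs in Tomato-negative members (4.79 CPM) and stood at 137 CPM in control (log2 ratio -4.62, -7.15 to -3.22). Psmb9 stood at 30.3 and 264 CPM. Cx3cr1, the fractalkine receptor, stood at 185, 412 and 424 CPM, and the Fc receptor Fcgr1 at 38.3, 188 and 92.3. The protamine Prm2 and the transition protein Tnp2 completed the 10 lowest, at 386 and 472 CPM against 3277 and 3166 in control, where 1 cell held 69.4% and 71.7% of their UMIs.

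Proliferation genes were highest in the control members. The 27 S and G2M phase genes summed to 1675, 3763 and 2253 CPM in the Tomato-negative, control and Scf-cKO members, and to 990, 3547 and 911 among members with up to 3500 genes. In the other kept cells they summed to 4070, 4633 and 4281 CPM, above the members of each library. Of 18 genes with enough UMIs 11 were at least 2-fold lower in Tomato-negative members, against 9.48% of all genes. Of 21 genes 11 were lower in Scf-cKO members, against 14.0% of all genes. The part of RNA from other cells in these levels was not tested. Mki67 was detected at 1000 UMIs in 2.92%, 17.0% and 7.43% of members, but also in 16.1%, 25.3% and 7.58% of cells without a leukocyte UMI, so none of these shares stood above background.

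Uptake receptors differed gene by gene. Of 17 clearance receptors and bridging proteins 6 were at least 2-fold higher and 3 lower in Scf-cKO members. Over all genes 13.1% were higher and 14.0% lower. The lower ones were Cd36 and the Fc receptors Fcgr1 (188 and 92.3 CPM in control and Scf-cKO) and Fcgr4 (152 and 22.3). With class II-low members left out, 3 of 16 were higher and 3 lower, against 8.80% and 12.0% of all genes. The list then summed to 1386 CPM in Scf-cKO and 1622 in control. Gas6, which bridges phosphatidylserine on dying cells to the receptors Axl and Mertk, stood at 54.3, 35.8 and 224 CPM in the 3 libraries, and Axl at 68.6, 87.3 and 116. Within the Scf-cKO library Gas6 stood at 556 CPM in class II-low and 100 in the other members. Cd36 stood at 33.5, 273 and 40.9 CPM and, at equal depth, was detected in 3.65%, 26% and 5.20% of members. The C5a receptor C5ar1 was higher in Tomato-negative members, at 322, 78.4 and 103 CPM.

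Growth factors with a place in the spermatogonial niche were sparse in members. Of 25 such genes 7 had enough UMIs in the Scf-cKO comparison, of which 3 were at least 2-fold higher and 0 lower. Over all genes 13.1% were higher and 14.0% lower. The list summed to 448 CPM in control and 950 in Scf-cKO members, and to 261 and 917 in the other kept cells. Igf1 stood at 30.3, 17.9 and 224 CPM in Tomato-negative, control and Scf-cKO members, against 9.07, 10.2 and 173 in the other kept cells. At equal depth it was detected in 15.2% of Scf-cKO members and 20.4% of cells without a leukocyte UMI, a share read as background over all members. The class II-low cells of the Scf-cKO library carried it in 48 of 53 cells, and the other members in 38 of 221. Csf1, the growth factor of macrophages themselves, had 4, 2 and 15 UMIs. Tgfb1 stood at 195, 157 and 229 CPM. The retinoic acid enzyme gene Aldh1a1, also on the Leydig cell list, stood at 11.2, 2.24 and 90.8 CPM, below the 20.2, 19.4 and 275 CPM of the other cells.

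Genes that varied with class II inside the Tomato-negative library were read in the other libraries, which had no part in choosing them. The 15 genes with the largest and the 15 with the smallest ratio between the 46 Tomato-negative members highest and the 46 lowest in class II, leaving out the 4 class II genes, were chosen there. In the other libraries the 43 (control) and 92 (Scf-cKO) members at each end were compared, whose median depth at the upper and lower end was 1041 and 3442 UMIs in control and 2842.5 and 5426.5 in Scf-cKO. Of the 15 upper genes, 14 were also higher in the class II-high members of control and 14 in those of Scf-cKO, where 37.4% and 29.0% of all genes were. In control Nr4a3 and Slc41a1 were counted among the 14 on 3 UMIs each. The upper genes held H2-DMb1, which loads class II molecules, with Il1b, Cd52, Ccl3 and the NF-kB subunit gene Rel. The lower genes were mostly germ cell genes such as Mlf1 and Fabp9, and 13 and 8 of 15 were also lower. Of the rest in Scf-cKO, Fam209, Tmco5, Prm3, 1700013G24Rik, Hrasls5 and Spz1 had 0 UMIs and Spata4 had 2. In control Clu had 0 and Fam209 had 1. These genes were too sparse there to be read as lower or not. Each upper gene, and none of the lower genes, was higher in Tomato-negative members than in other cells. The share over all genes includes genes of other cells, so it is not a like background for the upper genes. Whether class II or RNA of other cells set the order of members was not tested. When cells with and without a class II UMI after thinning to 1000 UMIs were compared instead, the control counts were 9 upper and 5 lower genes, and without doublets the Scf-cKO count of lower genes was 4.

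With members over 3500 genes left out, 13 and 11 of 15 upper genes were again higher in the class II-high members, where 52.2% and 34.8% of all genes were, and 9 and 13 of 15 lower genes were lower. The lower genes then held Apoe and Pf4. Apoe stood at 1258 CPM in the class II-high and 10866 CPM in the class II-low Tomato-negative members of this set, and Pf4 at 567 and 1523. In Scf-cKO Apoe stood at 3253 and 22117 CPM and Pf4 at 548 and 2867. In control Apoe was not lower at the class II-high end, at 1847 and 1503 CPM, whereas Pf4 stood at 189 and 277. Over all Tomato-negative members 1 cell held 28.7% of the Apoe UMIs. The contractile genes Myh11 and Acta2 were also among the lower genes of the Tomato-negative set, where 1 cell held 98.4% and 89.0% of their UMIs. In the class II-low members of the Scf-cKO library, by contrast, Acta2 stood at 252 CPM against 659 in the others.

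The immune cells left out for low C1q were 7, 9 and 21, and they differed from members in more than C1q. In the Scf-cKO library 8 of 21 had a UMI of the cytotoxic granule gene Nkg7, 7 of the T cell receptor gene Trbc2, 7 of the dendritic cell receptor Flt3 and 3 of Csf1r. In the Tomato-negative and control libraries Csf1r had a UMI in 5 of 7 and 4 of 9, and Cd74 in 6 of 7 and 8 of 9. Their markers were thus mixed, and they are few.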

How the data were processed

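Per the labels and the study's methods, the 3 droplet 3′ libraries were made on the 10x Chromium system, and the submitters' processing notes name Cell Ranger 2.1.1, Seurat 3.1 and the build GRCm38. The authors deposited matrices of UMI counts, which were used as raw counts. A merged file held the Tomato-negative cells (barcodes ending in 1, 7626 cells) and the control cells again. The control values were equal in both files, and 3575 control genes were added from the merged file.

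From these counts, cells were kept at 200 or more genes and at most 10% mitochondrial UMIs, members were selected by the rule, and UMIs were summed over members per library (626722, 446684 and 1343728 UMIs). CPM carried exact Poisson intervals, ratios exact conditional binomial intervals with 0.5 added to each count, and shares Clopper-Pearson intervals (scipy 1.17.1). With 1 library a condition no test was made, and a ratio of 2 was the threshold. Doublets were scored with Scrublet in scanpy 1.11.5 and left in. Cells were thinned with a fixed seed. The ratios were tested on simulated data.

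The members and the 32 gene lists (498 of 509 genes found) were chosen with earlier results of these data known. Named genes were those of the rule, the 15 most restricted to members, the 10 highest and 10 lowest ratios of each comparison, and the listed genes with most UMIs or past the fold, of which some are not reported here. Alternatives are given in the closing section.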

Additional observations from a re-analysis of the deposited data

How the results depend on the processing

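No paired analysis was possible because each condition had 1 library. Of 901 alternative values over all results, 761 moved by less than their allowed spread. The planned subtraction of free RNA gave no value, since haploid transcripts stood at 18852 CPM in control members against 14486 in all kept control cells. Leaving out both large cells and doublets, taking only genes higher in members than in other cells, and taking only members with at least 20 class II UMIs per 10000 were chosen after seeing the data. The cause of each shift was not tested.

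The share of members was 6.07%, 3.35% and 5.68% of cells with up to 3500 genes in the Tomato-negative, control and Scf-cKO libraries, and in control 1.60% with 4 leukocyte genes and 1.36% after thinning to 2000 UMIs. Against 745 genes higher and 800 lower in Scf-cKO members, the counts were 363 and 264 with up to 3500 genes, 286 and 260 without doublets, 248 and 202 without both, 393 and 380 at 100 UMIs a gene, 1434 and 1621 at 20, 140 and 126 among genes higher in members, and 399 higher with class II of at least 20. Against 314 higher and 365 lower in Tomato-negative members, they were 156 higher with up to 3500 genes, 144 without both, 175 with class II of at least 20, 135 and 124 at 100 UMIs, 667 and 976 at 20, 92 and 214 among genes higher in members, 938 lower with cells weighted the same and 197 lower with the median set to 0. Calls in Scf-cKO that were higher made up 48.2%, and 40.7% with the median set to 0, 40.4% with cells weighted the same and 57.9% with up to 3500 genes. In Tomato-negative members they made up 46.2%, 67.9%, 20.2% and 31.7%.

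List medians moved as follows. In Scf-cKO against control, the resident median was 0.92 with class II of at least 20. The class II median was -0.57 with up to 3500 genes and also without doublets too, -0.58 with cells weighted the same, -0.55 with the median set to 0, -0.20 with class II of at least 20 and -0.74 among genes higher in members. The chemokine median was 0.27 without doublets, 0.069 at 100 UMIs, 0.17 without both, -0.10 with class II of at least 20, where it changed sign, and 0.23 among genes higher in members. In Tomato-negative against control, the class II median was -0.61 without doublets, -0.15 with the median set to 0 and -0.55 among genes higher in members, the chemokine median 2.68 with the median set to 0, and the interferon median -0.93 at 100 UMIs. The myoid median reversed to -0.41 at 100 UMIs, on 1 gene. Of the genes chosen on class II in the Tomato-negative library, the lower ones that were also lower in Scf-cKO numbered 13 with up to 3500 genes, 4 without doublets and 14 without both, in control 5 after thinning and 7 without both, and the upper ones in control 9 after thinning.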

Other observations

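Complement genes other than C1q stood below C1q in the C1q-high cells, but above their level in the other kept cells. The C1q chains summed to 5564, 9973 and 11034 CPM in Tomato-negative, control and Scf-cKO members. Of 23 complement genes other than C1q 9, 8 and 4 had no UMI in Tomato-negative, control and Scf-cKO members, and their summed level was 790, 564 and 821 CPM. In the other kept cells the list summed to 76.7, 76.0 and 461 CPM. Of the 7 with enough UMIs in the Scf-cKO comparison 2, the C1 inhibitor Serping1 and Itgam, were at least 2-fold higher and 0 lower. Over all genes 13.1% were higher and 14.0% lower. Serping1 had a UMI in 4 class II-low and 24 other Scf-cKO members, and the part of RNA from other cells was not tested. The C3a receptor C3ar1 stood at 206, 222 and 172 CPM. The integrin Itgam, which forms complement receptor 3, stood at 57.4, 17.9 and 59.5 CPM.

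Lyz2 and Pf4 were high in both other libraries against control, at 2385, 1092 and 3464 CPM and at 769, 190 and 1102 CPM in the Tomato-negative, control and Scf-cKO members. Genes of chemokine and cytokine receptors varied little between Scf-cKO and control members, with 1 of 18, Csf2rb, at least 2-fold higher and 0 lower, and in Tomato-negative members 0 of 13 were higher and 3, Ccr2, Cx3cr1 and Ifnar2, lower. Tgfbr2 stood at 101, 134 and 165 CPM and Ifngr1, the interferon gamma receptor chain, at 84.6, 141 and 237.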
